A study of Mus musculus with 12 samples.

Results

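The immediate early genes Egr1, Egr2, Egr3, Nr4a1, Nr4a2, Nr4a3, Arc, Ier2, Ier3 and Srf were followed in mouse hearts 9 h after pressure overload or sham surgery. The 10 genes were taken by symbol from the deposited table of 13552 genes, and all 10 were found. Arc was chosen by its measured excess in knock-in over wild-type hearts after pressure overload, where it ranked 4 of 11240 genes tested by log2 difference, and the other 9 are early-response genes named by symbol. Values of the 10 genes in that contrast, and values of Arc in any contrast with TAC hearts, are therefore given as a description with no test.

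Immediate early genes are transcribed within minutes of a stimulus, from factors already present in the cell, and their mRNAs are short-lived. Egr1, Egr2 and Egr3 are zinc finger transcription factors, and Nr4a1, Nr4a2 and Nr4a3 are orphan nuclear receptors that act without a known classical ligand. Serum response factor (Srf) binds CArG boxes and drives both early genes and genes of the actin cytoskeleton, with ERK-responsive ternary complex factors or actin-sensing myocardin-related factors as partners, whereas CREB drives early genes downstream of cAMP and Ca2+. In the heart, stretch, adrenergic agonists and ischemia are classical inducers of these genes.

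Transverse aortic constriction (TAC) narrows the aortic arch and raises the load on the left ventricle. Hearts came from male mice (strain C57BL/6 in the labels, C57BL/6J in the methods) aged 8 to 10 weeks in 4 groups of 3, with TAC or sham surgery in wild-type (WT) and in KI mice. KI mice carried the Bcl-xL S14A knock-in, in which serine 14 of the survival protein Bcl-xL is replaced by alanine, on both alleles and in all tissues, and the methods say that WT mice were bought from a vendor, so the 2 genotypes are not stated to be littermates. Poly(A)-selected RNA of the heart was sequenced, so fewer cells of a type and less RNA per cell cannot be told apart. Levels are in RPKM, a unit that divides the reads of a gene by its exon length and by library size, and which can be compared between genes.

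Depth recovered from the table was 23650196 to 32455171 reads on genes per heart, and it was higher in every KI TAC heart (30298179 to 31676892) than in every WT TAC heart (25715288 to 29608542). Between hearts of a group, Pearson's r of log2(RPKM + 1) across genes, which are not independent replicates, was 0.946 to 0.991, and the lowest value was between WT TAC mice 9 and 10. Cardiomyocyte markers were all present (8 of 8), and none of the 3 atrial, 5 lymphocyte and 4 skeletal muscle markers was in the table.

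The sequence upstream of the start is shown for 4 of these genes to place 2 classical response elements of early genes, the CArG box and the CREB site. RefSeq windows (GRCm38.p6) matched 6 of the 10 genes (Egr2, Nr4a1, Nr4a2, Nr4a3, Ier3 and Srf, 10 windows in all). Both strands of the 250 bases before each start were searched for the CArG box and for TGACG, which is the core of the CREB site TGACGTCA and overlaps it. A CArG box was found in Egr2 (4 of 5 windows, of which 3 share 1 box) and Srf (2 boxes), and in 1.47% of all 32851 windows. TGACG was found 4 times in each of Nr4a1, Nr4a2 and Nr4a3, and 4 or more times in 0.137% of all windows, while 17.8% held it at least once. The stretches listed here run 5′ to 3′ on the strand of the gene, stop where an annotated exon begins, and carry CArG boxes and TGACG (or its complement) in capitals:
Egr2, window 3 (chr10:67537619-67537868, plus strand): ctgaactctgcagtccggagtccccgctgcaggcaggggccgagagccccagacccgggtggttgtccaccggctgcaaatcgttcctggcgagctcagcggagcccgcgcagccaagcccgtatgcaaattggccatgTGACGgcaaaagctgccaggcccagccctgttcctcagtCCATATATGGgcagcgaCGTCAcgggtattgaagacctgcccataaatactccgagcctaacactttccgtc
Srf (chr17:46556176-46556412, minus strand): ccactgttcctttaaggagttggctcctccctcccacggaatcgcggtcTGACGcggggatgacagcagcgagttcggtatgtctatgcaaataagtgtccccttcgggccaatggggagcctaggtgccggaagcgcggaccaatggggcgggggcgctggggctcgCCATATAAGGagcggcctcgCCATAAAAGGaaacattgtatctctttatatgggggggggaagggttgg
Nr4a1 (chr15:101266596-101266845, plus strand): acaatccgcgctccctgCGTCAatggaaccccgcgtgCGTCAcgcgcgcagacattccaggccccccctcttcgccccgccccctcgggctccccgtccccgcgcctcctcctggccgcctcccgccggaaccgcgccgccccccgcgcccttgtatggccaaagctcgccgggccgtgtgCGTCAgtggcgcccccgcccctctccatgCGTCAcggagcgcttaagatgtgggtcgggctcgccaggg
Nr4a3 (chr4:48045055-48045152, plus strand): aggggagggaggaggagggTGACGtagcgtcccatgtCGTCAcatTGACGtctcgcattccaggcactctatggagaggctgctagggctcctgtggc

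In the Egr2 stretch the CArG box starts 72 bases before the start site, between 2 copies of TGACG at 111 and 55 bases. The boxes of Srf start 82 and 62 bases before its start. In Nr4a1 the copies of TGACG start 233, 213, 69 and 40 bases upstream, and in Nr4a3 231, 213, 205 and 147 bases upstream, of which the last lies past the stretch shown. The full CREB site and the NR4A monomer site AAAGGTCA were in none of the 10 windows, and the Egr site GCGNGGGCG was in Nr4a1, Nr4a2 and Srf once each (4.70% of all windows). Ier3 held none of these letters. Such a match describes the letters of the window and says nothing of binding.

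Egr2, Egr3 and Ier3 rose after TAC in both genotypes, Egr1 and Ier2 passed the test in KI hearts, and the Nr4a genes and Srf passed it in neither. Of the 9 genes other than Arc, 3 rose in WT TAC against WT sham (Egr2, Egr3 and Ier3) and 0 fell, by limma, a linear model that shares variance between genes, at a Benjamini-Hochberg adjusted p of 0.05, against 11.6% of all genes tested that passed (6.96% higher, 4.60% lower). In KI TAC against KI sham 5 of 9 rose (Egr1, Egr2, Egr3, Ier2 and Ier3) and 0 fell, against 23.3% of all genes (8.57% higher, 14.7% lower). Both splits depend on scaling. Median-ratio scaling turned 963 genes higher and 1657 lower in KI hearts into 1556 and 1271, and the 5 calls held. In WT hearts it turned 782 higher and 517 lower into 728 and 722, and the 3 calls held. All 10 genes passed the filter of 1 RPKM in at least 3 of 12 hearts. Egr2 and Egr3 (0 sham hearts at 1 RPKM each) and Nr4a2 (1 sham heart) would not have passed it by their sham hearts alone. Of the genes other than Arc that sham hearts alone kept (Egr1, Nr4a1, Nr4a3, Ier2, Ier3 and Srf), only Ier3 rose in WT hearts. In KI hearts Egr1, Ier2 and Ier3 of these rose. The calls of Egr2 and Egr3 also held with no filter.

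**Figure D1:**
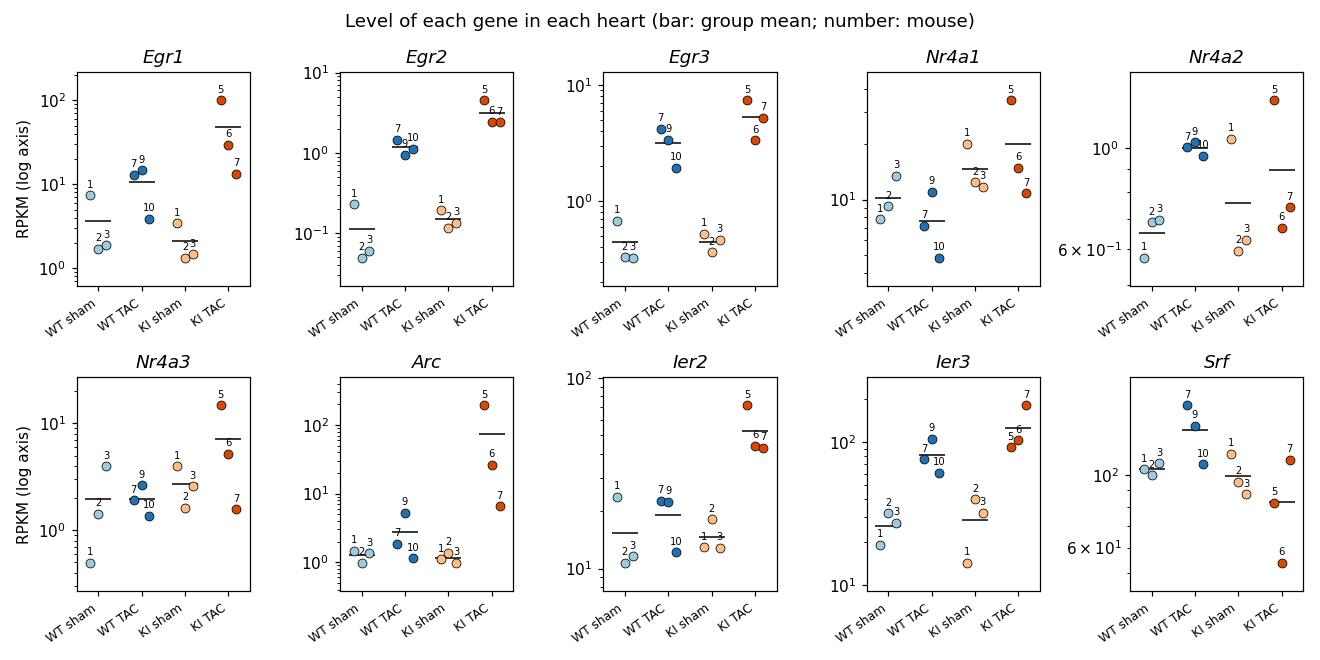
Level of each of the 10 genes in each heart, in RPKM on a log axis that differs between panels, with points for mice (numbered as the authors numbered them) and bars for group means of 3. Egr2 and Egr3 separate TAC from sham hearts in both genotypes, Arc reaches 193 RPKM in KI TAC mouse 5, and the TAC and sham hearts of Nr4a1, Nr4a3 and Srf overlap in both genotypes.

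Egr1 (chr18:34859823-34864984, plus strand; GRCm38, as for all positions here) is the zinc finger factor most often used to read out ERK signaling to the nucleus. It was at 7.36, 1.70 and 1.88 RPKM in WT sham mice 1, 2 and 3 and at 3.44, 1.34 and 1.47 RPKM in KI sham mice 1, 2 and 3. It was at 13.0, 14.6 and 3.91 RPKM in WT TAC mice 7, 9 and 10 and at 100.4, 29.3 and 13.4 RPKM in KI TAC mice 5, 6 and 7. WT TAC mouse 10 lay within the range of WT sham hearts, while every KI TAC heart lay above every sham heart. In KI hearts Egr1 rose by a log2 fold change of 3.58 ± 0.63 (SE; limma adjusted p = 0.00154), a ratio of mean RPKM of 22.9. In WT hearts the log2 fold change was 1.35 ± 0.63 and missed the threshold (limma adjusted p = 0.182). Without KI TAC mouse 5 the KI value was 2.82, still past the threshold, and the ratio of means 10.2.

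Egr2 (chr10:67535475-67542188, plus strand), known best from Schwann cell myelination and hindbrain patterning, was close to absent without TAC. It was at 0.229, 0.0498 and 0.0602 RPKM in WT sham hearts and at 0.193, 0.117 and 0.136 RPKM in KI sham hearts, which is 4 to 25 reads per library. After TAC it reached 1.45, 0.954 and 1.12 RPKM in WT mice 7, 9 and 10 and 4.53, 2.45 and 2.40 RPKM in KI mice 5, 6 and 7. The 4 groups did not overlap except for the sham groups with each other. On the log2(RPKM + 1) scale, which understates changes of low genes, Egr2 rose by 0.96 ± 0.17 in WT (SE; limma adjusted p = 0.00368) and by 1.81 ± 0.17 in KI hearts (adjusted p = 3.1e-05). The ratios of mean RPKM were 10.4 in WT and 21.04 in KI hearts, but the former was 21.4 without WT sham mouse 1, the highest of its group.

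Egr3 (chr14:70077203-70082614, plus strand) is the Egr member of muscle spindles and activated lymphocytes. It was at 0.678, 0.326 and 0.325 RPKM in WT sham and at 0.520, 0.361 and 0.462 RPKM in KI sham hearts. It was at 4.21, 3.36 and 1.93 RPKM in WT TAC mice 7, 9 and 10 and at 7.42, 3.35 and 5.21 RPKM in KI TAC mice 5, 6 and 7. All TAC hearts lay above all sham hearts, and the ranges of the TAC groups overlapped. Egr3 rose by 1.50 ± 0.24 in WT (SE; limma adjusted p = 0.00168) and by 2.08 ± 0.24 in KI hearts (adjusted p = 0.00011) on the log2 scale. Summed over the 3 Egr genes, Egr1 gave 71.1% to 89.0% of the RPKM in sham hearts and 56.2% to 89.4% in TAC hearts, so Egr1 stayed the most abundant member in every heart.

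Ier3 (chr17:35821684-35822923, plus strand), a small ERK-regulated stress protein linked to cell survival, was at 19.1, 31.7 and 27.0 RPKM in WT sham and 14.2, 39.6 and 31.9 RPKM in KI sham hearts. It was at 75.4, 105 and 60.8 RPKM in WT TAC mice 7, 9 and 10 and at 92.0, 103 and 180.3 RPKM in KI TAC mice 5, 6 and 7. All TAC hearts were above all sham hearts, and KI TAC mouse 7, not mouse 5, was the highest. Ier3 rose by 1.59 ± 0.36 in WT (SE; limma adjusted p = 0.0124) and by 2.14 ± 0.36 in KI hearts (adjusted p = 0.0011) on the log2 scale.

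Ier2 (chr8:84661331-84662852, minus strand), a short nuclear protein without introns in its gene, separated KI TAC hearts from the rest. WT sham hearts held 23.9, 10.7 and 11.6 RPKM and WT TAC hearts 22.7, 22.4 and 12.2 RPKM, and these ranges overlapped. It was at 12.9, 18.1 and 12.8 RPKM in KI sham and at 71.6, 44.0 and 42.9 RPKM in KI TAC hearts, with all KI TAC hearts above all others. The log2 fold change was 1.76 ± 0.32 in KI hearts (SE; limma adjusted p = 0.00169) and 0.33 ± 0.32 in WT hearts (adjusted p = 0.521).

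**Figure D2:**
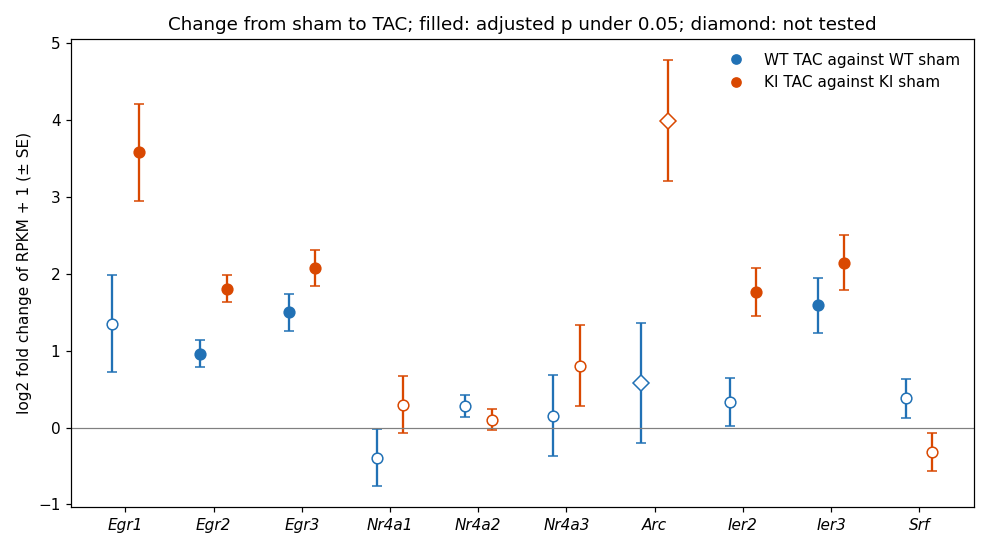
Log2 fold change of RPKM + 1 from sham to TAC for each gene in WT (blue) and KI hearts (orange), with SE from the limma fit over 12 hearts; filled points pass an adjusted p of 0.05 and the diamonds of Arc were not tested. The filled points are 3 in WT hearts and 5 in KI hearts, all above 0.

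Nr4a1 (chr15:101254269-101274795, plus strand), also called Nur77, is an orphan receptor of stressed muscle, macrophages and T cells. It was at 7.81, 9.21 and 13.4 RPKM in WT sham hearts and at 7.23, 11.0 and 4.83 RPKM in WT TAC mice 7, 9 and 10. It was at 20.1, 12.4 and 11.8 RPKM in KI sham hearts and at 34.7, 14.9 and 10.8 RPKM in KI TAC mice 5, 6 and 7. Only mouse 5 of the KI TAC group lay above the KI sham range. The log2 fold changes were -0.39 ± 0.37 in WT and 0.30 ± 0.37 in KI hearts (SE; limma adjusted p = 0.525 and 0.592), and the KI value was -0.16 without mouse 5.

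Nr4a3 (chr4:48045153-48086447, plus strand), or Nor1, varied widely within groups. The 3 WT sham hearts held 0.494, 1.42 and 3.96 RPKM, the WT TAC hearts 1.90, 2.63 and 1.36 RPKM, and the KI sham hearts 3.98, 1.63 and 2.58 RPKM. In KI TAC mice 5, 6 and 7 it was at 14.7, 5.18 and 1.57 RPKM, so mouse 7 lay below all KI sham hearts and mice 5 and 6 above them. Its log2 fold changes were 0.16 ± 0.53 in WT and 0.81 ± 0.53 in KI hearts (SE; limma adjusted p = 0.879 and 0.29). Without KI TAC mouse 7 the KI value was 1.45 (limma adjusted p = 0.0412), and without mouse 5 it was 0.15. Over its alternatives the adjusted p of the KI value ranged from 0.0412 to 0.861.

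Nr4a2 (chr2:57106830-57124003, minus strand), or Nurr1, the family member of dopaminergic neurons, was the lowest of the family in TAC hearts. WT sham hearts held 0.575, 0.688 and 0.696 RPKM and WT TAC hearts 1.01, 1.03 and 0.962 RPKM, which did not overlap, as was the case for 20.0% of all genes in that direction. Nr4a2 would not have passed the filter by its sham hearts alone, which limits that comparison. In KI hearts the groups were closer. Nr4a2 was at 1.05, 0.596 and 0.630 RPKM in KI sham and at 1.28, 0.669 and 0.742 RPKM in KI TAC hearts, which overlapped. The log2 fold changes of 0.28 ± 0.14 in WT and 0.10 ± 0.14 in KI hearts missed the threshold (SE; limma adjusted p = 0.221 and 0.626). Summed over the 3 receptors, Nr4a1 gave 67.6% to 88.0% of the RPKM in every heart.

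Arc (chr15:74669083-74672570, minus strand) encodes the activity-regulated cytoskeletal protein of neurons, which assembles into capsids derived from a retrotransposon and promotes endocytosis of glutamate receptors. In sham hearts it was at 1.47, 0.982 and 1.35 RPKM (WT) and at 1.10, 1.38 and 0.978 RPKM (KI), which is 71 to 144 reads. It was at 1.86, 5.28 and 1.14 RPKM in WT TAC mice 7, 9 and 10 and at 193, 26.1 and 6.57 RPKM in KI TAC mice 5, 6 and 7. All KI TAC hearts were above all other hearts, WT TAC mouse 9 was the next, and WT TAC mouse 10 lay within the sham range. The recovered reads were 17872, 2532 and 633 in the KI TAC hearts and 91 to 478 in the WT TAC hearts.

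As a description, the mean of Arc in KI TAC hearts was 75.2 ± 102.4 RPKM (SD, n = 3) and that in WT TAC hearts 2.76 ± 2.21 RPKM, and its log2 difference was 3.34 ± 0.79 (SE). It fell to 2.09 without KI TAC mouse 5 and reached 4.43 without KI TAC mouse 7. The highest KI TAC heart held 29.4 times the Arc of the lowest. The same ratio was 9.36 for Nr4a3 and 7.51 for Egr1. Arc differed less among hearts of the other groups, with ratios of 1.49 in WT sham, 4.63 in WT TAC and 1.41 in KI sham.

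**Figure D3:**
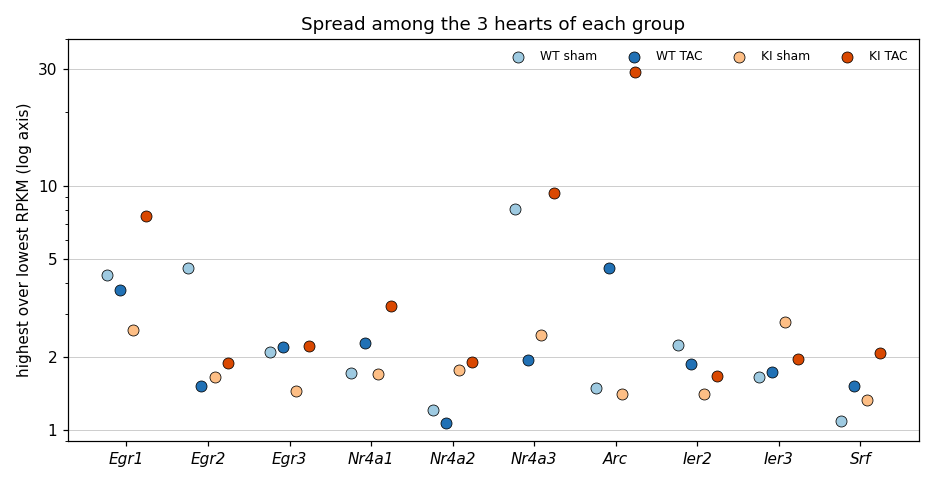
Ratio of the highest to the lowest RPKM among the 3 hearts of each group for each gene, on a log axis, with one point per group. The ratio of Arc in KI TAC hearts (29.4) is the highest point, followed by those of Nr4a3 in KI TAC (9.36) and WT sham (8.01) and of Egr1 in KI TAC hearts (7.51).

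Srf (chr17:46548329-46556175, minus strand) was the most abundant of the genes in sham hearts. WT sham hearts held 104, 99.96 and 109 RPKM, and WT TAC mice 7, 9 and 10 held 164, 142 and 108 RPKM. It was at 116, 95.3 and 87.3 RPKM in KI sham and at 82.2, 53.9 and 111 RPKM in KI TAC mice 5, 6 and 7. TAC hearts overlapped with sham hearts in both genotypes. The log2 fold changes were 0.38 ± 0.25 in WT and -0.32 ± 0.25 in KI hearts (SE; limma adjusted p = 0.344 and 0.378).

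Between the 2 TAC groups, given without a test, Egr2 and Ier2 (2 of the 9 genes other than Arc) were higher in every KI TAC heart than in every WT TAC heart, against 10.1% of all genes tested. So was Arc, which was chosen by this contrast and is not counted. The count was 5 of 9 without WT TAC mouse 9 and 5 of 9 without KI TAC mouse 7, where 13.5% and 12.3% of all genes did not overlap in that direction. It was 3 of 9 without KI TAC mouse 6. It stayed at 2 of 9 without WT TAC mouse 7, WT TAC mouse 10 or KI TAC mouse 5, although the share of all genes rose. That share was 16.3% without WT TAC mouse 10 and higher still without KI TAC mouse 5. The log2 differences were 1.79 for Egr1, 1.43 for Ier2, 1.18 for Nr4a1, 1.11 for Nr4a3 and 0.89 for Egr2. They were 0.60 for Ier3, 0.59 for Egr3, -0.09 for Nr4a2 and -0.77 for Srf. Without KI TAC mouse 5 they were 1.02 for Egr1, 0.72 for Nr4a1 and 0.45 for Nr4a3, and without KI TAC mouse 7 they were 2.43 for Egr1 and 1.76 for Nr4a3. Egr2 moved to 1.30 with a pseudocount of 0.1 and to 1.55 with limma-voom, so the order of these values is not fixed. Over all genes the median difference was -0.12, and 0.03 after median-ratio scaling. The sign of Nr4a2 turned with scaling, to 0.012 after median-ratio scaling and 0.085 after quantile normalization, while the other 9 genes kept theirs under both.

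Without pressure overload the genotypes were not told apart in these genes. In KI sham against WT sham 0 of 10 genes passed the limma test at an adjusted p of 0.05, 0 had an unadjusted p under 0.05, and 0 passed with limma-voom on the recovered reads. Over all genes 0.0178% passed and 0.329% had an unadjusted p under 0.05. The log2 differences farthest from 0 were 0.49 ± 0.37 for Nr4a1, 0.46 ± 0.53 for Nr4a3 and -0.45 ± 0.63 for Egr1 (SE), and the other 7 lay between -0.08 and 0.08.

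The difference between the genotypes in the response to TAC was tested as an interaction, and 0 of the 9 genes passed (limma adjusted p of 0.163 or more), where 0% of all genes passed. At an unadjusted p under 0.05 there were 3 of 9 (Egr1, Egr2 and Ier2), against 14.8% of all genes, and limma-voom also called 0. The interaction contains the contrast between the TAC groups, which was known when the genes were chosen, so the count of 3 is a description only. The estimates were 2.23 ± 0.89 for Egr1, 1.43 ± 0.45 for Ier2 and 0.84 ± 0.24 for Egr2 (log2, SE). They were 0.69 ± 0.53 for Nr4a1, 0.65 ± 0.75 for Nr4a3, 0.58 ± 0.33 for Egr3 and 0.56 ± 0.51 for Ier3. Srf had -0.70 ± 0.35 and Nr4a2 -0.17 ± 0.20. That Egr1 and Ier2 passed in KI hearts and not in WT hearts is therefore not shown to be a difference between the genotypes.

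Many of the genes shared the order of hearts within a group. KI TAC mouse 5 was the highest of its group for 8 of the 10 genes and the lowest for Ier3, whereas it was the highest for 19.8% of all genes. KI TAC mouse 7 was the lowest for 6 of the 10 (15.8% of all genes) and the highest for 2, Ier3 and Srf (53.7% of all genes). WT TAC mouse 10 was the lowest of its group for 9 of the 10 genes (26.3% of all genes), with Egr2 the exception. These counts in TAC hearts include Arc, which was chosen by its values there. Without Arc, KI TAC mouse 5 was the highest for the Egr and Nr4a genes and Ier2. KI TAC mouse 7 was then the lowest for Egr1, Egr2, Nr4a1, Nr4a3 and Ier2, and WT TAC mouse 10 for all but Egr2. In WT sham hearts, mouse 1 was the highest for 5 of the 10 genes (Egr1, Egr2, Egr3, Arc and Ier2) and the lowest for 4 (Nr4a1, Nr4a2, Nr4a3 and Ier3), close to its shares over all genes of 53.5% and 31.7%. KI sham mouse 1 was the highest for 7 of the 10, the Egr and Nr4a genes and Srf, against 39.1% of all genes.

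**Figure D4:**
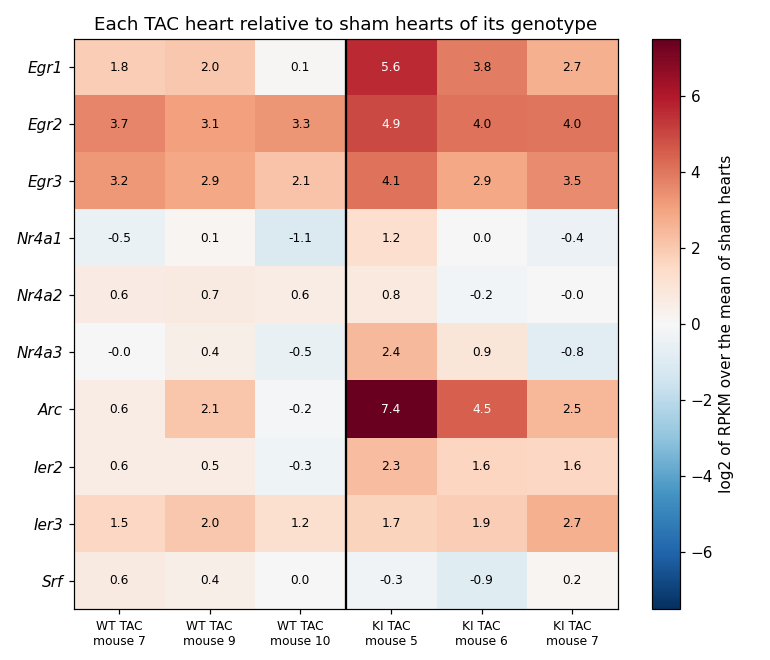
Log2 ratio of RPKM in each TAC heart to the mean of the 3 sham hearts of its genotype, with genes in rows and mice in columns, red above and blue below 0. Arc has 7.39 in KI TAC mouse 5, 4.51 in mouse 6 and 2.51 in mouse 7, Egr2 lies between 3.08 and 4.93 in the 6 hearts, and WT TAC mouse 10 has 0.10 for Egr1.

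The genes most like Arc over the 12 hearts, by Pearson's r of log2(RPKM + 1), were Ifrd1 (r = 0.992), Zfp623 (0.989), Adpgk (0.984), Hspa1a (0.980) and Hspa8 (0.980). Ifrd1 is an early transcriptional co-regulator, Zfp623 a zinc finger gene, Adpgk an ADP-dependent glucokinase, and Hspa1a and Hspa8 are chaperones of the Hsp70 family. Hspa1a was at 1356, 75.1 and 4.66 RPKM in KI TAC mice 5, 6 and 7 and at 17.1 RPKM in WT TAC mouse 9, with 1.03 to 3.54 RPKM in the other 8 hearts. It shares reads with its near-identical copy Hspa1b, so its own level is uncertain. Ifrd1 was at 29.7, 9.74 and 5.49 RPKM in KI TAC hearts, 4.83 RPKM in WT TAC mouse 9 and at most 2.72 RPKM elsewhere. Without KI TAC mice 5 and 6, where Arc was highest, r was 0.975 for Ifrd1, 0.936 for Zfp623, 0.873 for Adpgk, 0.795 for Hspa1a and 0.796 for Hspa8. All points share the library and its scaling.

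**Figure D5:**
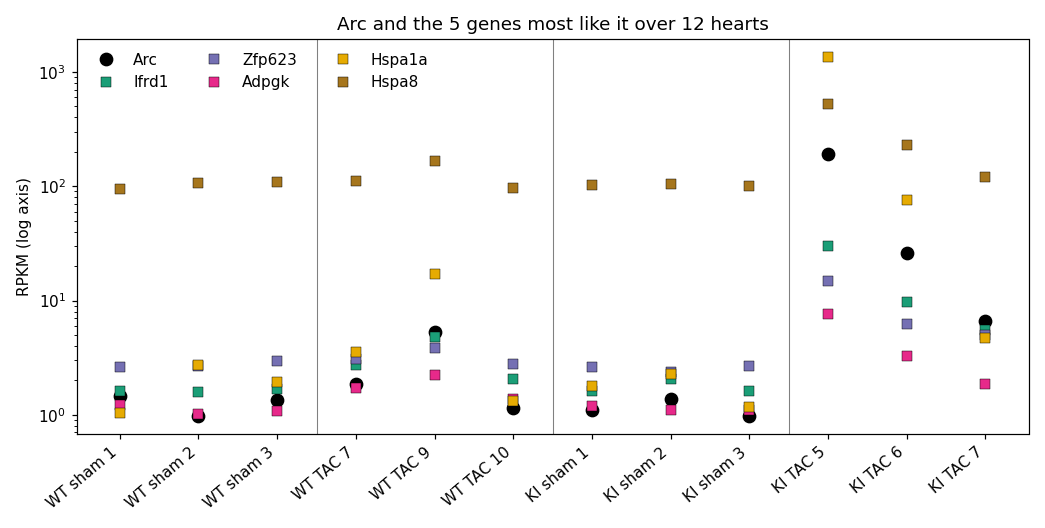
RPKM of Arc (black circles) and of the 5 genes most like it (squares) in each of the 12 hearts, on a log axis, with vertical lines between groups. Arc and Hspa1a are highest in KI TAC mouse 5 (193 and 1356 RPKM), and in WT hearts both are highest in WT TAC mouse 9 (5.28 and 17.1 RPKM).

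The genes most like Egr1 were the matricellular gene Ccn1 (r = 0.973), the AP-1 subunit Fos (0.969), the kinase Plk3 (0.969), the chemokine Cxcl1 (0.962) and the BMP effector Smad1 (0.961). Ccn1 reached 1676, 383 and 215 RPKM in KI TAC mice 5, 6 and 7, and Fos 200.2, 22.8 and 7.38 RPKM. Without KI TAC mice 5 and 6 the 5 values of r were 0.895 to 0.976. For Nr4a1 they were the phosphatase Dusp1 (0.887), the kinase Sik1 (0.862), the AP-1 repressor Jdp2 (0.862), the insulin receptor substrate Irs2 (0.862) and the potassium channel Kcna5 (0.848). Without WT TAC mouse 10 and KI TAC mouse 5 these fell to between 0.537 and 0.674. Among the members, r over 12 hearts was 0.905 between Egr1 and Arc, 0.916 between Egr1 and Ier2, 0.452 between Egr1 and Nr4a1, and -0.21 between Egr1 and Srf.

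Many other immediate early genes rose as well. Of 33 such genes, 31 were tested: 6 rose and 0 fell in WT TAC against WT sham, with a median log2 fold change of 0.73, and 19 rose and 0 fell in KI TAC against KI sham, with a median of 1.60, where all genes had medians of 0.04 and -0.10 and 6.96% and 8.57% of them rose. Fos and Fosl1 would not have passed the filter on low values by their sham hearts alone, and without both, 6 and 17 of 29 rose. The matricellular gene Ccn2 rose by 3.32 ± 0.36 in WT and 3.35 ± 0.36 in KI hearts (limma adjusted p = 0.000153 and 7.21e-05). Junb, an AP-1 subunit, rose by 1.80 ± 0.35 and 2.72 ± 0.35 (adjusted p = 0.00525 and 0.000197). Myc, a growth factor-responsive regulator of ribosome synthesis, rose by 1.97 ± 0.41 and 3.19 ± 0.41, and the antiproliferative gene Btg2 by 1.66 ± 0.37 and 3.29 ± 0.37. Atf3, a stress factor of the ATF family, rose by 4.58 ± 0.76 in KI hearts (adjusted p = 0.00109), and in WT hearts its value was 1.68 ± 0.76 (adjusted p = 0.170). Sgk1, a serum- and steroid-regulated kinase, rose by 1.31 ± 0.19 in KI hearts and had -0.40 ± 0.19 in WT hearts (adjusted p = 0.182), with an interaction of 1.71 ± 0.27 (adjusted p = 0.0919).

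Many cytoskeletal targets of Srf rose after TAC in both genotypes. Of 15 tested, 8 rose in WT TAC and 7 in KI TAC hearts against their sham hearts and 0 fell, with medians of 0.88 and 0.67, against 6.96% and 8.57% of all genes that rose. Tagln and Cnn1 would not have passed the filter by their sham hearts alone, and without both, 7 of 13 rose in each genotype. Fhl1, a LIM protein of the sarcomere, rose by 3.28 ± 0.28 and 3.25 ± 0.28 (limma adjusted p = 4.95e-05 and 1.36e-05). The skeletal actin gene Acta1 rose by 2.70 ± 0.52 and 1.66 ± 0.52, the focal adhesion gene Zyx by 0.85 ± 0.18 and 0.93 ± 0.18, and calponin Cnn1 by 1.16 ± 0.25 in WT hearts. Cnn1 had 0.38 ± 0.25 in KI hearts (adjusted p = 0.283). Of 10 cofactors of Srf, 1 fell in WT TAC hearts (Hopx, an inhibitor of Srf, -0.98 ± 0.25) and 3 fell in KI TAC hearts (Fhl2, the ternary complex factor Elk1 and the cardiac homeobox gene Nkx2-5, -0.85 ± 0.28, -0.46 ± 0.14 and -0.93 ± 0.29), where 14.7% of all genes fell. After median-ratio scaling none of these 3 passed (limma adjusted p of 0.0601, 0.0683 and 0.0691). Leaving out WT sham mouse 2 or WT TAC mouse 7 lowered the count over all partner lists in WT hearts from 20 to 11 and 7.

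Several partners of the nuclear receptors passed as lower, though not all under each scaling. Of 5 tested, the retinoid X receptors Rxra and Rxrg fell in WT TAC hearts (-0.60 ± 0.17 and -1.16 ± 0.29), where 4.60% of all genes fell. Rxra, Rxrg, Rxrb and the orphan receptor Nr2f1 fell in KI TAC hearts (-0.88 ± 0.17, -0.95 ± 0.29, -0.98 ± 0.32 and -0.56 ± 0.14), where the median of the list was -0.88, that of all genes -0.10, and 14.7% of all genes fell. Nr2f1 would not have passed the filter by its TAC hearts alone. Without it, 3 of 4 fell in KI TAC hearts, with a median of -0.91, and 2 of 4 in WT TAC hearts. Of 4 Egr partners tested, the corepressor Nab1 rose in WT TAC hearts (0.62 ± 0.17) and the zinc finger gene Maz fell in KI TAC hearts (-1.07 ± 0.35). Egr4, also on that list, was absent from the deposited values. Of 9 CREB and MEF2 activators 0 passed in WT hearts by limma, and the CREB coactivator Crtc1 fell in KI hearts (-0.74 ± 0.18). Of 8 synaptic and endosomal interactors of Arc, the endophilin gene Sh3gl1 rose (0.59 ± 0.16) and the kinase gene Camk2b fell (-0.53 ± 0.15) in WT TAC hearts, and the dynamin gene Dnm1 fell in KI TAC hearts (-1.13 ± 0.28). Of these interactors 0 rose in KI hearts. Over all partner lists 10 genes fell in KI TAC hearts, of which 5 (Rxra, Rxrg, Nr2f1, Crtc1 and Dnm1) stayed past the threshold after median-ratio scaling and also with limma-voom, and Rxrb and Maz did not with either. Of the 10, 4 stayed without KI sham mouse 1, 5 without KI sham mouse 2 or 3, 6 without KI TAC mouse 5 and 3 (Crtc1, Fhl2 and Rxra) without KI TAC mouse 6. Of the 4 that fell in WT TAC hearts, 4 stayed with either scaling, 0 without WT sham mouse 1, WT TAC mouse 7 or WT TAC mouse 9, and 2 without WT sham mouse 2 or 3 or WT TAC mouse 10.

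Markers of other cells moved with some of these values. Neutrophil markers (S100a8, S100a9 and Csf3r; Ly6g and Retnlg were not in the table) summed to 0.395 to 1.27 RPKM in sham hearts and to 5.37, 9.87 and 3.69 RPKM in WT TAC mice 7, 9 and 10. They summed to 20.3, 11.3 and 4.18 RPKM in KI TAC mice 5, 6 and 7, which is the order of these hearts for Arc and Egr1 in each TAC group. Fibroblast markers (5 of 5 in the table) ran the other way: they summed to 266, 131 and 602 RPKM in WT TAC mice 7, 9 and 10 and to 88.5, 101 and 162 RPKM in KI TAC mice 5, 6 and 7, against 109 to 215 RPKM in sham hearts. The part of either in the results was not tested. The 6 macrophage and monocyte markers summed to 151 to 203 RPKM in WT TAC, 92.0 to 114 RPKM in KI TAC and 69.6 to 116 RPKM in sham hearts. Of 6 neuron markers 2 were in the table (Map2 and Tubb3), summing to 0.625 to 2.69 RPKM in KI TAC and 1.24 to 12.7 RPKM in WT TAC hearts, while the defining markers Snap25, Syt1, Rbfox3 and Elavl4 were not in it. Of 4 Schwann cell markers 2 were in the table, summing to 1.40 to 1.53 RPKM in KI TAC and 2.43 to 3.48 RPKM in WT TAC hearts. The sums in TAC hearts were 235 to 289 RPKM for 5 endothelial, 148 to 260 RPKM for 4 smooth muscle and pericyte and 57.6 to 196 RPKM for 3 red blood cell markers, and 14692 to 24743 RPKM for the 8 cardiomyocyte markers.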

How the data were processed

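RNA of 12 hearts was sequenced by the authors on an Illumina NextSeq instrument. Per the submitters' processing notes the tools included Trimmomatic 0.39, HISAT2 2.2.1, HTSeq 0.6.1, edgeR 3.18.1 and limma 3.32.10 with the genome build GRCm38, and the step from counts to the table is not given in the sources used here. The deposited values are RPKM: times exon length (GENCODE M21, 13546 of 13552 genes matched) they summed to 997702 to 1002226 per heart. Low values were whole multiples of 1 read for 96.6% to 98.6% (within 0.1 read), against at most 32.3% with a wrong step, which gave the depth of each library.

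Groups came from the labels for genotype and treatment. The values were analysed as log2(RPKM + 1), after keeping the 11240 genes that reached 1 RPKM in 3 or more of the 12 hearts, by limma 3.58.1 in R 4.3.3 (4 group means, eBayes with trend, two-sided, Benjamini-Hochberg 0.05). This replaced the count test of the authors, since the table holds no counts. With 3 against 3 hearts an exact permutation test of a single gene cannot go below p = 0.1, so none was used. The methods state that experiments used more than 1 cohort or material, but not which heart came from which, so p-values measure only the spread between these hearts. Motifs were counted in 250 bases before RefSeq starts. Python 3.11.15, numpy 2.4.6, pandas 2.3.3 and matplotlib 3.10.9 were used.

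Alternatives were a pseudocount of 0.1, no filter, quantile normalization, median-ratio scaling, limma-voom on recovered reads, a fit of the compared groups, an adjusted p of 0.10, a replicate block and leaving out each heart. The 10 genes, the gene and marker lists and the tests were chosen with earlier results of these data known. All 10 genes were named, with at most 4 genes per partner list (6 other early genes) by smallest p, the 5 genes of largest r with Arc, Egr1 and Nr4a1 (predicted genes passed over), and further genes of a list only where a count of 5 or fewer made naming them necessary.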

Additional observations from a re-analysis of the deposited data

How the results depend on the processing

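Of 900 values of single genes under the alternatives, 872 kept their direction and side of the threshold (untested values, their direction to within 1 SD), 3 moved by more than that, 1 became significant and 24 changed sign. In WT TAC against WT sham 3 genes rose under every alternative run, and in KI TAC against KI sham 5 rose, or 6 without KI TAC mouse 7, when Nr4a3 passed. Leaving out hearts gave 3 to 6 genes without overlap between KI TAC and WT TAC hearts with Arc, which that contrast chose, and 2 to 5 of 9 without it. The share of all genes rose too, to 13.5% without WT TAC mouse 9 and 12.3% without KI TAC mouse 7. It rose more, to 16.3%, without WT TAC mouse 10, and most without KI TAC mouse 5, where the count stayed at 2 of 9 both times. It gave 7 to 27 genes called over the partner lists in WT hearts. Over those lists the lower calls in KI hearts went from 10 to 5 with median-ratio scaling or limma-voom, and to 3 without KI TAC mouse 6. The 10 genes in KI sham against WT sham and the 9 in the interaction stayed at 0 calls under the alternatives run, and the 10 also with a replicate block. The sham hearts share replicate numbers, but their deviations did not go together (r of -0.22, -0.30 and 0.44), so the block is an alternative only, and over all genes it called 0 in place of 2.

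The sign changes were of values that missed the threshold or had no test. Leaving out single hearts gave -0.25 to 0.62 for Nr4a3 in WT TAC against WT sham, and -0.16 to 0.64 for Nr4a1 and -0.035 to 0.22 for Nr4a2 in KI TAC against KI sham. In KI sham against WT sham it gave -0.74 to 0.081 for Egr1, -0.045 to 0.13 for Egr3, -0.034 to 0.15 for Nr4a2, -0.20 to 0.35 for Ier2, -0.24 to 0.47 for Ier3 and -0.19 to 0.013 for Srf, and for the interaction -0.010 to 1.30 for Nr4a3. Quantile normalization gave -0.033 for Egr3 and -0.00215 for Ier2 between sham groups and, for Nr4a2, 0.037 in the interaction and 0.085 in KI TAC against WT TAC, where median-ratio scaling gave 0.012. Median-ratio scaling and limma-voom gave -0.011 and -0.019 for Ier2 between sham groups. The cause was not tested. Over all genes, leaving out hearts gave 596 to 1525 calls in WT and 1453 to 2981 in KI hearts (1299 and 2620 with all hearts). The lowest counts were without WT TAC mouse 7 and without KI sham mouse 3. In the interaction it gave 0 to 240 calls, of which 240 came when WT TAC mouse 9 was left out, 182 for KI TAC mouse 7 and 8 for WT TAC mouse 10. Egr2, with 4 to 25 reads in sham hearts, is limited by depth there.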
